A study of Mus musculus with 9 samples.

Results

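Axonemal dynein genes were followed in mouse testis through the first wave of spermatogenesis. The genes were all those whose array rows carried exactly 1 gene symbol and whose symbol starts with Dnah, Dnai, Dnal, Dnaaf or Dynl. This gave 32 of the 19935 genes with a value, measured by 73 of 28815 array rows. They comprise 15 heavy chains, 2 intermediate chains, 3 light chains of the Dnal family, 5 light chains of the Dynl family and 7 assembly factors. The tissue was whole testis of untreated male Swiss albino mice from an inbred line, aged 8, 16 or 24 days, with 3 arrays per age that the submitters describe as biological replicates. The labels give no genetic change and no agent for any age. The submitters compared 16 with 8 days, 24 with 16 days and 24 with 8 days.

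Axonemal dyneins are the motors of cilia and flagella. They sit on the outer doublet microtubules as outer and inner arms and slide neighbouring doublets against each other, which bends the sperm tail. Heavy chains carry the ATPase motor, intermediate and light chains anchor and tune it, and assembly factors fold and join the chains in the cytoplasm before they are transported into the axoneme. Male germ cells begin to transcribe many flagellar genes in meiosis, before the tail is built in spermatids.

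Each value is a log2 value relative to the median of the 9 arrays for that array row, with the rows of a gene averaged. A value of 0.00 is therefore the median array and not absence of expression, no absolute level can be read, and levels cannot be compared between genes. A gene with steady values may be unexpressed or expressed alike at every age. Arrays were compared with limma (moderated test, two-sided, Benjamini-Hochberg adjustment over all 19935 genes, threshold 0.05), errors of changes are standard errors from that fit with 3 arrays per age, and errors of means are SD. The number of arrays limits the precision.

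The testis label was checked against cell type markers, which in centred values can speak only through their changes. Of 6 spermatocyte markers, 6 were higher at 16 than at 8 days. All 6 spermatid markers were higher at 24 than at 16 days, and 0 of the 6 passed for 16 versus 8 days, also at an unadjusted p under 0.05. The 6 spermatogonial and the 5 measured Sertoli cell markers were lower at 24 than at 8 days. The 4 measured Leydig cell markers were lower at 16 than at 8 days, with a median change of -2.02. At 24 compared with 16 days 1 of them was higher and 0 were lower. Replicate 2 of 16 days stood apart. It was the highest 16-day array for 23 of the 26 dynein genes that were higher at 24 than at 8 days (88.5%), against 69.7% of all genes that were higher in that comparison. It and replicate 1 of 8 days also had raised olfactory receptor genes, with medians of 0.171 and 0.17 against -0.046 to 0.031 in the other arrays. Counts without these arrays are given beside the results below.

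Most axonemal dynein genes rose with age. At 24 compared with 8 days, 26 of the 32 genes were higher and 2 were lower, where 19.2% of all genes were higher and 35.2% were lower. Their median change was 2.31 on the log2 scale, against -0.18 for all genes. For the 26 genes that were higher, all 3 arrays of 24 days lay above all 3 of 8 days, an arrangement found in 20.5% of all genes. For the 2 genes that were lower, all 3 arrays of 24 days lay below all 3 of 8 days, as in 45.0% of all genes. In whole testis, fewer cells of a type and less RNA per cell cannot be told apart.

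The rise was already present at 16 days for most genes. At 16 compared with 8 days, 21 genes were higher and 1 was lower (background 10.4% and 14.3%), with a median of 1.15 against -0.02 for all genes. At 24 compared with 16 days, 21 were higher and 2 were lower (background 13.2% and 20.1%), with a median of 0.73 against -0.16. The background of lower genes in that comparison, 4004 genes, was 1672 without replicate 1 of 16 days and 5196 without replicate 1 of 8 days, the lowest and highest with 1 array left out, with 2616 without replicate 3 of 16 days and 1764 without replicate 1 of 24 days. It was 1927 with each array centred. Without replicate 2 of 16 days, 18 genes were higher and 1 was lower at 16 compared with 8 days. The counts at 24 compared with 16 days were 21 and 2. In that fit, 1776 of all genes were higher and 1965 lower at 16 versus 8 days. At 24 versus 16 days the counts of all genes were 2635 and 4340. Without both raised arrays, 25 were higher and 3 lower at 24 compared with 8 days. In that fit 19 were higher and 1 lower at 16 compared with 8 days. At 24 compared with 16 days, 23 were higher and 2 lower. The counts of all genes in that fit are not given here, so these counts have no background of their own.

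**Figure D1:**
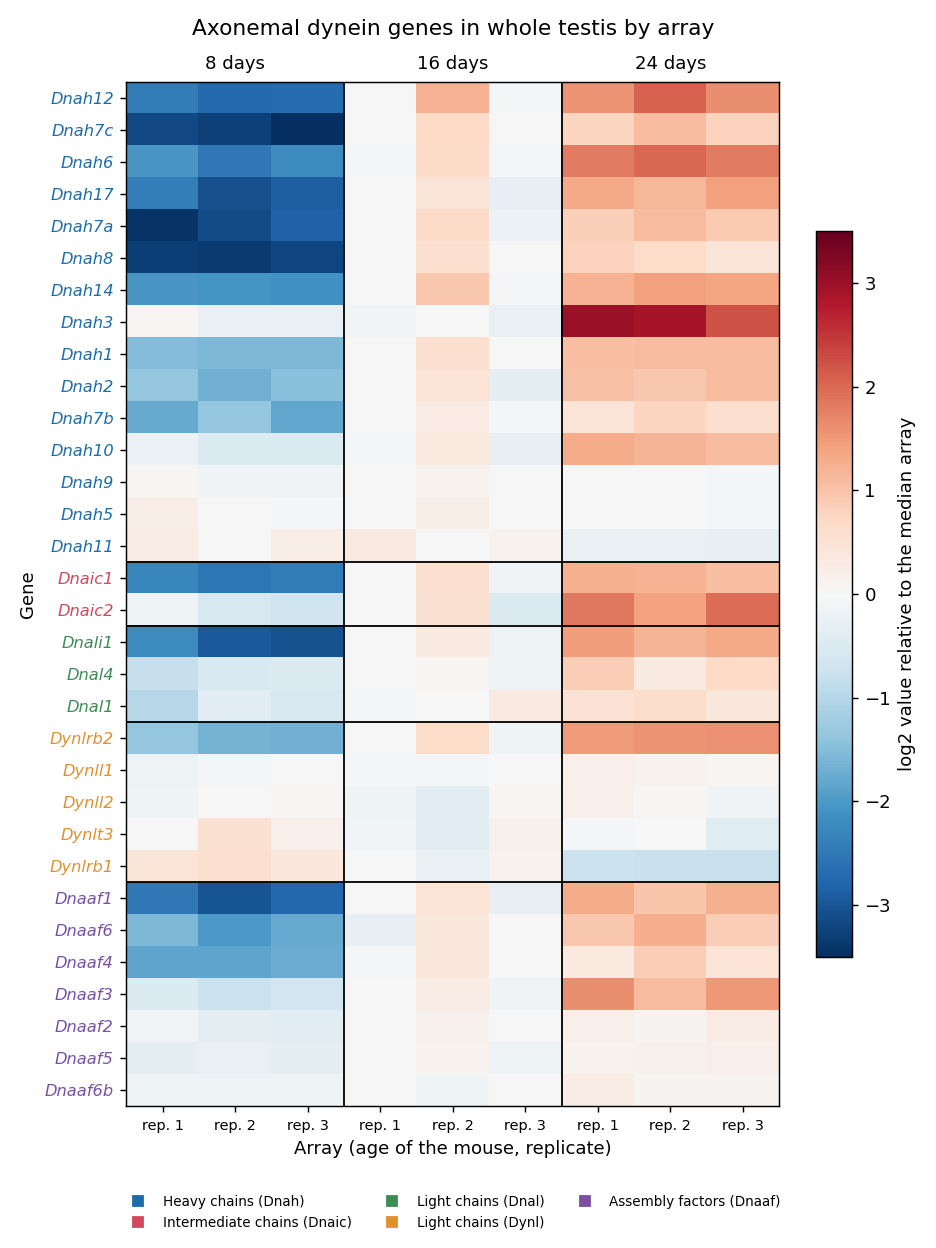
Values of the 32 axonemal dynein genes (rows, grouped by class) in the 9 arrays (columns, by age and replicate), as log2 relative to the median array of each row. Most heavy chains are blue at 8 days and red at 24 days, Dnah3 is red at 24 days alone, and Dnah5, Dnah9, Dnah11 and Dynlrb1 do not follow that course.

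Among the 15 heavy chains, 12 were higher and 1 was lower at 24 compared with 8 days, with a median change of 2.88. Dnah12, a heavy chain grouped with the single-headed inner arm motors, had the largest change of the heavy chains. It read -2.46, -2.73 and -2.70 at 8 days, -0.01, 1.23 and -0.06 at 16 days, and 1.57, 2.07 and 1.64 at 24 days. The ages did not overlap, and replicate 2 of 16 days lay well above the other 16-day arrays. The change at 24 compared with 8 days was 4.39 ± 0.30, or 21.0-fold (limma adjusted p = 1.45e-06).

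Dnah7c, one of 3 closely related mouse copies of an inner arm heavy chain, read -3.15, -3.26 and -3.56 at 8 days, 0.00, 0.69 and -0.01 at 16 days, and 0.76, 1.09 and 0.80 at 24 days. It was low in every 8-day array, and the 24-day arrays lay just above the highest 16-day array. Its change was 4.20 ± 0.19 at 24 compared with 8 days (adjusted p = 1.23e-07) and 3.55 ± 0.19 at 16 compared with 8 days (adjusted p = 1.39e-06). At 24 compared with 16 days it was 0.65 ± 0.19 (adjusted p = 0.0278), a call that Dnah7c lost in 8 of 19 alternative settings, among them leaving out replicate 1 (adjusted p = 0.107) or 3 of 16 days (0.0852) or any array of 24 days (0.0533 to 0.0928).

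Dnah7a, the second copy, read -3.44, -3.13 and -2.83 at 8 days, 0.00, 0.67 and -0.21 at 16 days, and 0.84, 1.10 and 0.92 at 24 days. Again no 2 ages overlapped. The change was 4.08 ± 0.22 at 24 compared with 8 days (adjusted p = 3.16e-07) and 3.29 ± 0.22 at 16 compared with 8 days. The smaller change at 24 compared with 16 days (0.80 ± 0.22, adjusted p = 0.021) was lost in 7 of 19 alternative settings, 4 of them with 1 array left out (replicates 1 and 3 of 16 days, adjusted p = 0.0786 and 0.0679, and replicates 2 and 3 of 24 days, 0.0681 and 0.0505). Dnah7b, the remaining copy, changed by 2.24 ± 0.15 at 24 compared with 8 days (adjusted p = 1.11e-06), but its 2 array rows differed, with changes of 1.19 and 3.30. The copies resemble each other in sequence, so their rows may share signal and the difference between copies is uncertain.

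Dnah6, another inner arm heavy chain, read -2.04, -2.49 and -2.22 at 8 days, -0.05, 0.67 and -0.06 at 16 days, and 1.82, 2.0 and 1.81 at 24 days. Its 3 array rows gave changes between 3.80 and 4.52 at 24 compared with 8 days. The averaged change was 4.13 ± 0.19 (adjusted p = 1.31e-07), and the later interval still held 1.69 ± 0.19 of it (24 compared with 16 days, adjusted p = 0.000227).

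The promoters of Dnah7c and Dnah6 are shown because both rank among the 4 genes that rose most from 8 to 24 days. They were picked from those 4 after the promoters had been seen, since both hold the longer X-box described below, and Dnah6 also holds the short cAMP response element. The promoters of Dnah12 and Dnah17, which complete those 4 genes, held none of the searched motifs. The X-box is the DNA element bound by RFX transcription factors, which control cilium genes, and the cAMP response element is the element bound by CREM, a regulator of spermatid genes. Sequences are from RefSeq (GRCm38.p6), read 5′ to 3′ from 250 bases before to 50 bases after the start of transcription. Capitals mark the searched motifs, which are spelled out below. The Dnah7c promoter is chr1:46425268-46425567 on the plus strand and the Dnah6 promoter is chr6:73221582-73221881 on the minus strand.

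Dnah7c: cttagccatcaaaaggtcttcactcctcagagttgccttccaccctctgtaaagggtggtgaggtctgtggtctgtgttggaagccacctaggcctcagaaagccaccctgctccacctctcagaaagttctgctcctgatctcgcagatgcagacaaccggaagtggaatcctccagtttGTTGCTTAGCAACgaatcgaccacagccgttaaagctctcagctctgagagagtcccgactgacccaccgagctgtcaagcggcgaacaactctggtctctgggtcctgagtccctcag
Dnah6: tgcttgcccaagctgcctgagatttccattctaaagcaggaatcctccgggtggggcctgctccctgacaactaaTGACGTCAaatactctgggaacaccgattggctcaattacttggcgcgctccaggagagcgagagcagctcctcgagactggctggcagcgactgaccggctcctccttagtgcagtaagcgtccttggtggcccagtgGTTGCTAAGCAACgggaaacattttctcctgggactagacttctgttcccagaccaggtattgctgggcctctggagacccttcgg

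Outer arm heavy chains come in sets that differ between ciliated tissues. In human, DNAH5, DNAH9 and DNAH11 serve airway cilia, while sperm tails use DNAH8 and DNAH17. In these testes both heavy chains of the sperm set rose. Of the 3 heavy chains of the airway set, 0 were higher in any comparison and 1 was lower at 24 than at 8 days. Over all genes 19.2% were higher and 35.2% lower in that comparison, so the airway counts are not unusual. The sets were not tested against each other.

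Dnah8 read -3.30, -3.36 and -3.22 at 8 days, -0.01, 0.55 and 0.00 at 16 days, and 0.80, 0.65 and 0.46 at 24 days. The 8-day arrays were far below the rest, whereas the 16-day and 24-day arrays overlapped through replicate 2 of 16 days and replicate 3 of 24 days. Its change was 3.93 ± 0.15, or 15.2-fold, at 24 compared with 8 days (adjusted p = 5.19e-08). At 16 compared with 8 days it was 3.47 ± 0.15 (adjusted p = 3.69e-07), which is 88.4% of the change up to 24 days. The difference of 0.46 ± 0.15 at 24 compared with 16 days passed narrowly (adjusted p = 0.0453) and missed the threshold in 12 of 19 alternative settings.

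Dnah17 read -2.43, -3.08 and -2.89 at 8 days, 0.00, 0.46 and -0.29 at 16 days, and 1.32, 1.16 and 1.43 at 24 days. The 3 ages were separate. Its change was 4.10 ± 0.20, or 17.2-fold, at 24 compared with 8 days (adjusted p = 1.91e-07), with 2.86 ± 0.20 at 16 compared with 8 days and 1.25 ± 0.20 at 24 compared with 16 days (adjusted p = 0.00192).

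Of the airway set, Dnah5 read 0.22, 0.00 and -0.07 at 8 days, 0.00, 0.21 and 0.00 at 16 days, and 0.00, -0.01 and -0.04 at 24 days. Dnah9 read 0.05, -0.13 and -0.12 at 8 days, 0.00, 0.13 and -0.01 at 16 days, and 0.00, 0.00 and -0.03 at 24 days. Neither passed the test in any comparison, the ages overlapped throughout, and the differences at 24 compared with 8 days were -0.07 ± 0.10 for Dnah5 and 0.06 ± 0.08 for Dnah9. Several of these zeros are blank cells, since 4 of the 9 Dnah5 cells and 3 of the 9 Dnah9 cells were empty in the deposited table.

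Dnah11 read 0.25, 0.00 and 0.23 at 8 days, 0.32, -0.02 and 0.11 at 16 days, and -0.25, -0.26 and -0.29 at 24 days. Every 24-day array lay below the earlier ones, and all 3 arrays lay lower at 24 than at 16 days in 39.1% of all genes. Its change was -0.43 ± 0.11 at 24 compared with 8 days (adjusted p = 0.00677) and -0.41 ± 0.11 at 24 compared with 16 days (adjusted p = 0.0175). With each array centred on its median the 24 versus 16 days difference was -0.32 (adjusted p = 0.0556). The call at 24 versus 16 days was also lost without replicate 1 of 16 days (adjusted p = 0.0799), replicate 1 of 24 days (0.0529) or replicate 3 of 24 days (0.0524).

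Dnah3 had the largest change of the heavy chains at 24 compared with 16 days. This single-headed inner arm motor read 0.04, -0.25 and -0.25 at 8 days, -0.10, 0.01 and -0.25 at 16 days, and 3.03, 2.90 and 2.24 at 24 days. The arrays of 8 and 16 days overlapped, and all 3 arrays of 24 days were high. Its change was 0.04 ± 0.19 at 16 compared with 8 days (adjusted p = 0.96) and 2.84 ± 0.19, or 7.16-fold, at 24 compared with 16 days (adjusted p = 6.01e-06). The gene has 33 array rows, which were tested one by one in a separate limma fit of all 28815 array rows. All 33 were higher at 24 than at 16 days, by 1.15 to 4.63, and none passed for 16 versus 8 days, with differences between -0.13 and 0.18.

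**Figure D2:**
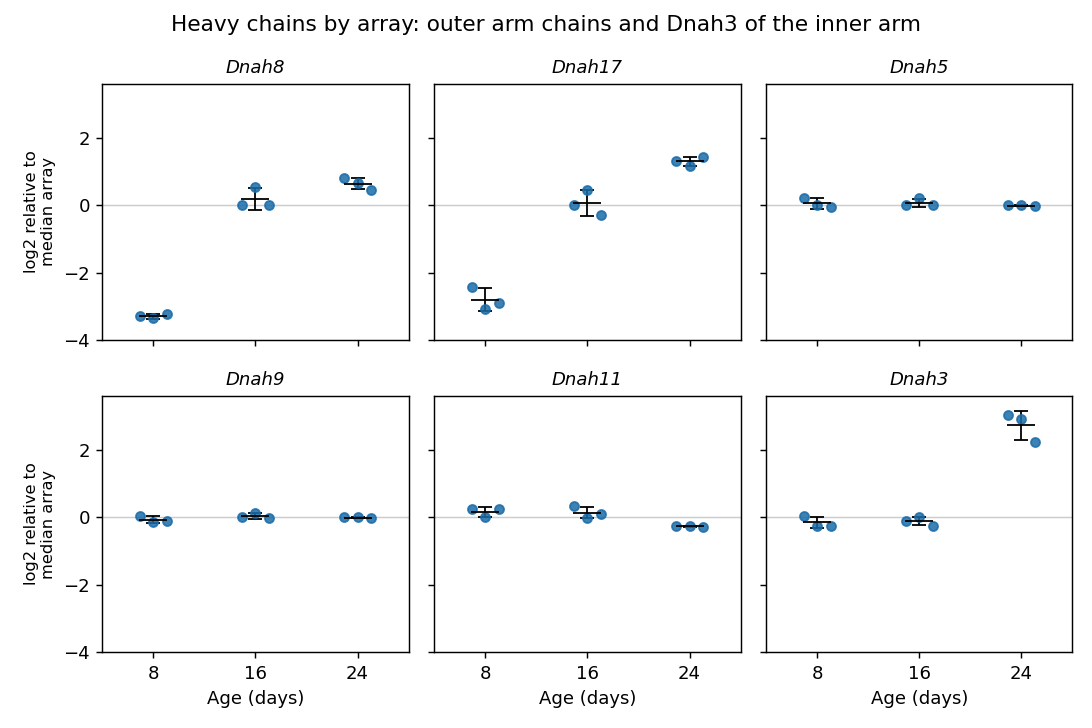
Values of 6 heavy chains by age (x axis, days; y axis, log2 relative to the median array), with points for the 3 arrays of an age and bars for the mean and SD. Dnah8 and Dnah17 are low at 8 days, Dnah3 is high only at 24 days, and Dnah5, Dnah9 and Dnah11 stay within 0.32 of 0 in every array.

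Of the other heavy chains, Dnah14 changed by 3.42 ± 0.22, Dnah1, an inner arm chain needed for the human sperm tail, by 2.62 ± 0.14, and Dnah2 by 2.52 ± 0.18 at 24 compared with 8 days. Their adjusted p lay at 1.94e-06 or below. Dnah2 and Dnah10 are the heavy chains of the double-headed inner arm dynein. Dnah10 changed by 0.38 ± 0.15 at 16 compared with 8 days, which missed the threshold (adjusted p = 0.106). It passed there without replicate 3 of 16 days (0.53, adjusted p = 0.0279) and with array weights (adjusted p = 0.0394), and with arrays left out in turn it lay between 0.21 and 0.53. Dnah10 changed by 1.20 ± 0.15 at 24 compared with 16 days (adjusted p = 0.000479). All 5 of its array rows were higher at 24 than at 16 days in the fit of single rows.

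Whether the later interval differed from the earlier was tested directly, as the change of 24 versus 16 days minus the change of 16 versus 8 days. In this test 1 gene was higher (Dnah3, by 2.80 ± 0.32, adjusted p = 0.000683) and 9 were lower, against 3.06% and 2.31% of all genes. The 9 genes with the larger change in the earlier interval were Dnah8, Dnah7c, Dnah7a, Dnah17, Dnah7b, Dnaic1, Dnali1, Dnaaf1 and Dnaaf4. The difference was -3.02 ± 0.27 for Dnah8 (adjusted p = 0.00015) and -2.90 ± 0.34 for Dnah7c (adjusted p = 0.000687).

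Replicate 2 of 16 days bears on this test. Without it, 3 genes were higher and 7 were lower, with Dnah10 (1.16, adjusted p = 0.0194) and Dnaic2 (1.73, adjusted p = 0.0369) joining Dnah3, and with Dnah17, Dnah7b and Dnali1 no longer passing and Dnah14 passing. Without replicate 1 of 16 days, 5 genes were lower. Of all genes, 344 were higher and 269 lower in that fit, and 556 and 450 without replicate 2 of 16 days. Without both raised arrays, 2 were higher and 9 lower, with no counts of all genes given for that fit. The values for Dnah3 stayed between 2.65 and 3.04 and those for Dnah8 between -3.21 and -2.64 over 18 settings, all past the threshold.

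**Figure D3:**
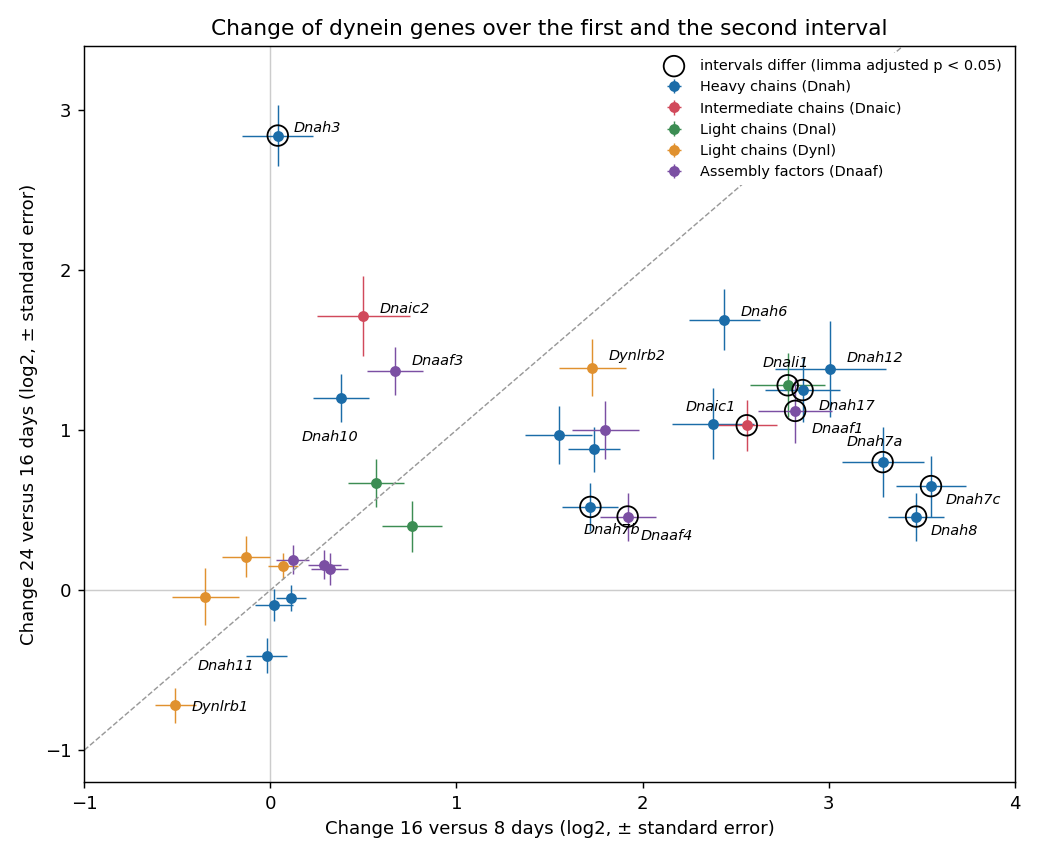
Change of each dynein gene at 16 versus 8 days (x axis, log2) and at 24 versus 16 days (y axis, log2), with standard errors as bars. The 16-day arrays enter both axes with opposite sign, the dashed line marks equal changes, and circles mark the 10 genes for which the intervals differed (Dnah3 above the line, 9 below it).

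The intermediate chains Dnaic1 and Dnaic2 form the core of the outer arm. Dnaic1 read -2.27, -2.53 and -2.44 at 8 days, 0.00, 0.55 and -0.12 at 16 days, and 1.24, 1.22 and 1.06 at 24 days. Its ages were separate, and the change was 3.59 ± 0.16 at 24 compared with 8 days (adjusted p = 1.03e-07). By 16 days it had changed by 2.56 ± 0.16 (adjusted p = 3.25e-06).

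Its partner Dnaic2 read -0.16, -0.57 and -0.71 at 8 days, 0.00, 0.54 and -0.47 at 16 days, and 1.85, 1.41 and 1.96 at 24 days. Here the arrays of 16 and 8 days overlapped and the 24-day arrays lay above both. The change was 0.50 ± 0.25 at 16 compared with 8 days (adjusted p = 0.191), ranging from 0.25 to 0.75 with arrays left out in turn, and it passed without replicate 3 of 16 days (0.75, adjusted p = 0.0399). It was 1.71 ± 0.25 at 24 compared with 16 days (adjusted p = 0.00098). The courses of the partners were not tested against each other.

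All 3 light chains of the Dnal family were higher at 24 than at 8 days. Dnali1, a light chain of inner arm dyneins, read -2.23, -2.93 and -3.04 at 8 days, 0.00, 0.32 and -0.18 at 16 days, and 1.45, 1.19 and 1.33 at 24 days. It changed by 4.06 ± 0.20, or 16.7-fold, with no overlap of ages (adjusted p = 2.04e-07).

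The outer arm light chains moved less. Dnal4 read -0.80, -0.54 and -0.48 at 8 days, 0.00, 0.07 and -0.19 at 16 days, and 0.85, 0.32 and 0.71 at 24 days, a change of 1.23 ± 0.15 at 24 compared with 8 days (adjusted p = 6.16e-05). Dnal1, which binds the motor domain of an outer arm heavy chain, read -1.01, -0.41 and -0.56 at 8 days, -0.03, 0.00 and 0.32 at 16 days, and 0.50, 0.62 and 0.39 at 24 days. It changed by 1.16 ± 0.16 at 24 compared with 8 days (adjusted p = 0.000133), and its difference of 0.40 ± 0.16 at 24 compared with 16 days missed the threshold (adjusted p = 0.0719).

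Light chains of the Dynl family are shared with cytoplasmic dynein and other complexes, and they were the class with the smallest median change, 0.08 at 24 compared with 8 days. The roadblock light chains went opposite ways. Dynlrb2 read -1.36, -1.65 and -1.69 at 8 days, 0.00, 0.63 and -0.15 at 16 days, and 1.49, 1.57 and 1.59 at 24 days. Dynlrb1 read 0.45, 0.56 and 0.38 at 8 days, 0.00, -0.26 and 0.12 at 16 days, and -0.74, -0.77 and -0.78 at 24 days. In both genes the 3 ages were separate, in rising order for Dynlrb2 and in falling order for Dynlrb1.

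The change of Dynlrb2 was 3.11 ± 0.18, or 8.65-fold higher at 24 than at 8 days (adjusted p = 5.27e-07). Dynlrb1 changed by -1.23 ± 0.11, or 2.34-fold lower at 24 than at 8 days (adjusted p = 7.33e-06), and was lower in both intervals. Its change at 24 compared with 8 days lay between -1.27 and -1.11 over 19 settings. Dynlrb1 and Dnah11 were the 2 genes that fell.

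The LC8 light chains, hub proteins that dimerize many partners, and the Tctex light chain differed little or did not pass. Dynll1 read -0.18, -0.08 and 0.00 at 8 days, -0.03, -0.03 and 0.00 at 16 days, and 0.18, 0.12 and 0.08 at 24 days. Its change of 0.22 ± 0.08 at 24 compared with 8 days passed (adjusted p = 0.0441) but was lost in 13 of 19 alternative settings. Dynll2 differed by 0.08 ± 0.13 (adjusted p = 0.623).

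Dynlt3, the Tctex light chain, read 0.00, 0.52 and 0.18 at 8 days, -0.10, -0.40 and 0.14 at 16 days, and -0.06, 0.00 and -0.42 at 24 days. The ages overlapped, and its difference of -0.39 ± 0.18 at 24 compared with 8 days missed the threshold (adjusted p = 0.0837). Of its 9 cells 2 were blank. It passed as lower with blanks left missing (-0.59, adjusted p = 0.0384), with array weights (adjusted p = 0.00934), without both raised arrays (-0.51, adjusted p = 0.027) and without replicate 1 of 8 days (-0.51, adjusted p = 0.0474).

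**Figure D4:**
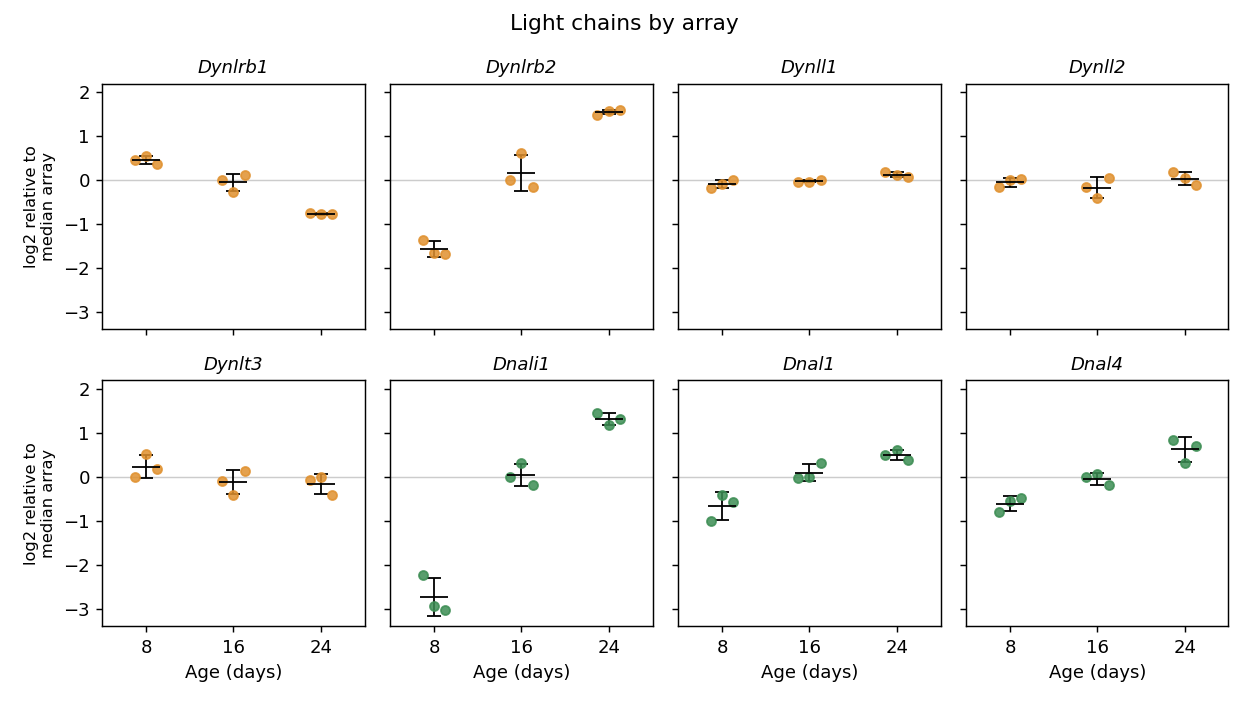
Values of the 8 light chain genes by age (x axis, days; y axis, log2 relative to the median array), with points for the 3 arrays of an age and bars for the mean and SD. Dynlrb2 and Dnali1 climb with age, Dynlrb1 descends to about -0.76 at 24 days, and Dynll1, Dynll2 and Dynlt3 stay within 0.52 of 0.

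Of the 7 assembly factors, 7 were higher at 24 than at 8 days, with a median change of 2.04. Dnaaf1, a leucine-rich repeat protein, read -2.51, -3.03 and -2.75 at 8 days, 0.00, 0.47 and -0.30 at 16 days, and 1.30, 0.98 and 1.25 at 24 days. It changed by 3.93 ± 0.20, or 15.3-fold (adjusted p = 1.99e-07), with no overlap of ages.

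Dnaaf6, a PIH-domain co-chaperone, has its gene on chromosome 1, and its relative Dnaaf6b is on chromosome X. Dnaaf6 read -1.58, -2.01 and -1.76 at 8 days, -0.29, 0.36 and 0.00 at 16 days, and 0.93, 1.26 and 0.87 at 24 days. Its change was 2.80 ± 0.18 (adjusted p = 8.94e-07), against 0.31 ± 0.09 for Dnaaf6b (adjusted p = 0.0119), both at 24 compared with 8 days. Each array of 24 days was above each array of 8 days for either gene, though the Dnaaf6b call was lost without replicate 1 of 24 days (0.25, adjusted p = 0.0552).

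Dnaaf4, also a co-chaperone, read -1.85, -1.84 and -1.75 at 8 days, -0.07, 0.38 and 0.00 at 16 days, and 0.34, 0.87 and 0.48 at 24 days. It had changed by 1.92 ± 0.15 at 16 compared with 8 days (adjusted p = 1.65e-05), which is 80.7% of its change of 2.37 ± 0.15 up to 24 days. The 24-day and 16-day arrays overlapped. Dnaaf3 had the opposite balance, with 0.67 ± 0.15 at 16 compared with 8 days and 1.37 ± 0.15 at 24 compared with 16 days, though its intervals did not pass the test of their difference (adjusted p = 0.216).

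Smaller changes were seen in Dnaaf2, the PIH-domain protein kintoun, and in Dnaaf5, a HEAT-repeat protein. Dnaaf2 changed by 0.45 ± 0.10 (adjusted p = 0.0037) and Dnaaf5 by 0.45 ± 0.09 (adjusted p = 0.00191) at 24 compared with 8 days. Both passed narrowly at 16 compared with 8 days (adjusted p = 0.045 and 0.0421), and each lost that call in 8 of the 9 fits that left out 1 array.

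Other genes of the arms carry symbols outside the rule. Of 6 such subunits, 5 were higher and 0 lower at 24 than at 8 days (background 19.2% and 35.2%), with a median of 2.41. They included Wdr63 (4.29 ± 0.22) and Wdr78 (2.95 ± 0.23), intermediate chains of the double-headed inner arm, and Nme8 (4.19 ± 0.35), an outer arm protein with a thioredoxin domain. Of 12 further assembly factors, 11 were higher and 0 lower, with a median of 1.90 and with Lrrc6 (4.90 ± 0.18), Zmynd10 (4.42 ± 0.18) and the outer arm transport factor Daw1 (3.24 ± 0.14) changing most. The member that did not pass was Ruvbl1 (-0.17 ± 0.10).

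The arms attach or connect to the docking complex, the axonemal ruler and the nexin-dynein regulatory complex. Of 18 genes of these structures, 17 were higher and 0 lower at 24 than at 8 days (background 19.2% and 35.2%). Their median change was 2.21. Fbxl13 (4.84 ± 0.15), Ccdc65 (4.20 ± 0.14) and Tcte1 (4.14 ± 0.29), all of the nexin-dynein regulatory complex, changed most. Fbxl13 changed by 0.76 at 16 compared with 8 days and by 4.08 at 24 compared with 16 days.

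Cytoplasmic dynein, the motor of transport along microtubules in every cell, and its partner dynactin moved in mixed directions. Of 22 genes, 8 were higher and 5 lower at 24 than at 8 days (background 19.2% and 35.2%), with a median of 0.12. The largest changes were in Dync2h1 (1.52 ± 0.12) and Wdr60 (1.44 ± 0.11), which belong to the dynein of intraflagellar transport, and in the dynactin subunit Actr1a (1.41 ± 0.11). The heavy chain Dync1h1 differed by 0.16 ± 0.09 (adjusted p = 0.148).

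**Figure D5:**
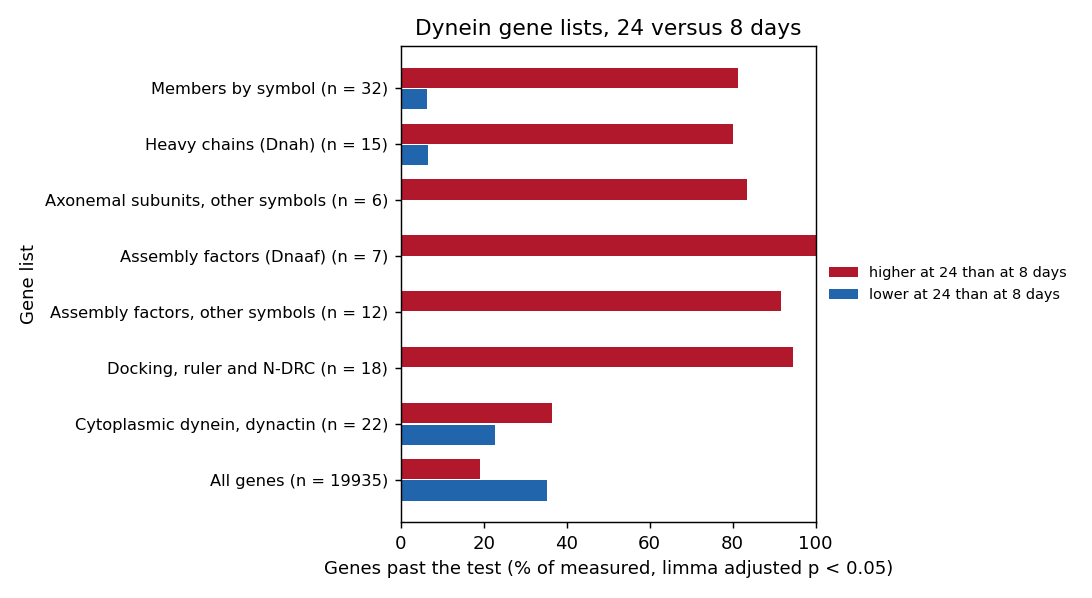
Percent of the measured genes of each list (bars, with the number of genes in brackets) that were higher or lower at 24 than at 8 days by limma adjusted p under 0.05. The 32 genes by symbol, the heavy chains, the Dnaaf factors and the further axonemal lists drawn each have at least 80% of their genes higher, and cytoplasmic dynein with dynactin has 36.4%, against 19.2% of all genes.

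Transcription regulators of cilium and germ cell genes were read beside the dynein genes. Of 11, 8 were higher and 1 lower at 24 than at 8 days (background 19.2% and 35.2%). Sox30 (3.05 ± 0.10), Rfx4 (2.96 ± 0.12), Fhl5 (2.88 ± 0.21), Crem (2.79 ± 0.20), Rfx2 (2.71 ± 0.13), Mybl1 (2.40 ± 0.23), Tbpl1 (1.64 ± 0.15) and Foxj1 (0.50 ± 0.15) were higher, and Taf7l (-1.04 ± 0.18) was lower. Rfx1 and Rfx3 did not pass (adjusted p = 0.389 and 0.0874).

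Their timing varied. At 16 compared with 8 days, Rfx2, a factor required for spermatid maturation, had changed by 1.90, Rfx4 by 2.14, Sox30 by 2.33 and Mybl1, the regulator of pachytene genes, by 2.18. Fhl5, a coactivator of CREM, differed by -0.75 at 16 compared with 8 days (adjusted p = 0.0253) and by 3.62 at 24 compared with 16 days (adjusted p = 2.36e-06).

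Promoters from RefSeq were matched to 29 of the 32 dynein genes, with 30 promoters in all. Dnaaf1, Dnah3 and Dynll2 were not searched. On both strands they were searched for GTTGCCA, a short form of the X-box, and for TGACGT, a short form of the cAMP response element. GTTGCCA was found in 4 of the 30 promoters (Dnaaf2, Dnaaf4, Dnah10 and Dnah7b), against 4.38% of 32851 promoters. TGACGT was found in 2 (Dnah6 and Dnaic1), against 7.51%. In Dnah6 it occurs on both strands, overlapping in the capitals of the sequence above that begin at position -175, counted from -1 at the base before the start.

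A longer X-box made of inverted repeats, GTTGCNNNGCAAC, was added after the promoters had been looked at, so its count is a description. It reads alike on both strands and was found in 6 of the 30 promoters, against 0.225% of all promoters (74). The genes were Dnah6, Dnah7a, Dnah7b, Dnah7c, Dnaic2 and Dynlrb2. All 6 were higher at 24 than at 8 days, where 81.2% of the 32 dynein genes were higher. In none did it overlap the other motifs. The windows below show it in capitals, named by the position of the first capital and with 9 bases to either side, for the 4 genes whose promoters are not printed above. The Dnah7 copies all lie on chromosome 1 and resemble each other, so their windows are not independent. A match in these letters does not show that a factor binds.

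Dnah7a, from position -57: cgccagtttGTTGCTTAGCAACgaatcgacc
Dnah7b, from position -24: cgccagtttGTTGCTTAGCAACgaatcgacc
Dnaic2, from position -33: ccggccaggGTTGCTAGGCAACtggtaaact
Dynlrb2, from position -51: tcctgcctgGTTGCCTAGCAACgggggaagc

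Germ cell markers changed at the same ages as the dynein genes. The summed values of the 6 spermatogonial markers ranged from 2.77 to 3.69 at 8 days, from -2.22 to 0.91 at 16 days and from -5.27 to -4.48 at 24 days. The summed values of the 6 spermatocyte markers ranged from -16.08 to -15.48 at 8 days, from -0.21 to 2.06 at 16 days and from 4.28 to 4.88 at 24 days. Those of the 6 spermatid markers ranged from -1.54 to 0.06 at 8 days, from -1.62 to -0.03 at 16 days and from 23.16 to 29.16 at 24 days. Of the spermatocyte markers, all 6 were higher at 16 than at 8 days and 3 were again higher at 24 than at 16 days. Ccna1, a meiotic cyclin, changed by 0.94 in the earlier and by 2.22 in the later interval. Dnah3, Dnah10, Dnaic2 and the 6 spermatid markers passed as higher for 24 versus 16 days and not for 16 versus 8 days. The share of all genes with that pattern is not given here. In the direct limma test of the intervals, Dnah3 and the 6 spermatid markers passed. Dnah10 (adjusted p = 0.139) and Dnaic2 (adjusted p = 0.182) did not. Dnah10 and Dnaic2 did pass for 16 versus 8 days without replicate 3 of 16 days. The part of cell composition in these changes was not tested.

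Multiciliated cells line the efferent ducts beside the testis and also use axonemal dyneins. Of their 7 markers, 3 were higher and 0 lower at 24 than at 8 days (background 19.2% and 35.2%). The 3 were Deup1 (3.48 ± 0.25), Cdc20b (0.65 ± 0.12) and Foxj1 (0.50 ± 0.15). Mcidas, Gmnc, Ccno and Trp73 did not pass, with differences between -0.27 and 0.04. Summed values ranged from -2.32 to 0.04 at 8 days, from -0.69 to 1.43 at 16 days and from 2.11 to 3.58 at 24 days. Deup1 carried most of this difference. Without it the 6 other markers summed to between -1.25 and 0.74 at 8 days, -0.23 and 1.05 at 16 days, and -0.24 and 0.48 at 24 days, so that the ages overlapped. The part of such cells in the dynein values was not tested. Of the 4 measured epididymal markers, 0 passed by limma in any comparison, and at an unadjusted p under 0.05 there was 1 in 24 versus 16 days and 0 in the others.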

How the data were processed

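Total RNA of 9 whole testis samples was labelled with biotin and hybridised to Affymetrix arrays, per the labels' protocols. The deposited values are log2 values, which the authors centred so that the median array of a row is 0. The log base is taken from their range, and background correction, normalization and summarization are not given in the sources used here. Blank cells were taken as 0, the median array, since every row then has a median of 0 (84 of the 657 cells of the dynein rows were blank). Rows with 1 gene symbol in the platform's probe table were averaged per gene, which gave 19935 genes, and rows with several symbols or none were left out. A title number gave replicates 1 and 2, and the array without a number is replicate 3. The design text calls the arrays of an age biological replicates without naming animals, so p-values measure the spread between these arrays.

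All genes were fitted with limma 3.58.1 in R 4.3.3 (a mean per age, 6 residual and 3.82 prior degrees of freedom), with 4 contrasts, and the script was tested on simulated data. Values in every array are given for the 5 heavy chains and the 3 genes of each other class that changed most, for outer arm heavy chains and for genes that fell. Dnah3 and Dynll1, for which array values are also given, were added after their values were seen. In each further list the 3 called genes that changed most are named, and every called regulator. Dnah10, Dnah14, Dnah1, Dnah2, Dnah7b, Dnaaf2, Dnaaf3, Dnaaf5, Ruvbl1 and Dync1h1 were named to account for their lists. The genes, lists and comparisons were chosen with earlier results of these data known. All 32 genes matched RefSeq (GRCm38.p6), which gave promoters and chromosomes. Tables and figures were made with Python 3.11.15, pandas 2.3.3 and matplotlib 3.10.9. Alternatives were array centring, blanks left missing, other row summaries, array weights, robust eBayes, a replicate block, only the 2 ages compared, and arrays left out. The 6 numbered arrays without a block were added after seeing the data.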

Additional observations from a re-analysis of the deposited data

Results flagged for a closer look

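Array rows that carried several gene symbols were outside the gene test. Their values here are from a separate limma fit of all 28815 array rows, with the adjustment over those rows. They held signal of the same families. Of 6 such rows, both rows shared by Dnah7a, Dnah7b and Dnah7c were higher at 24 than at 8 days, by 4.63 ± 0.20 (limma adjusted p = 2.83e-07) and 3.85 ± 0.21 (adjusted p = 9.55e-07) on the log2 scale.

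Both rows shared by Dynlt1a, Dynlt1b, Dynlt1c and Dynlt1f, light chains of the Tctex family, were higher at 24 than at 8 days, by 0.92 ± 0.08 and 0.93 ± 0.08 (adjusted p = 1.73e-05 and 1.62e-05). Both rows shared by Dnaaf2 and the ribosomal protein gene Rpl36al differed by 0.02 ± 0.13 and 0.01 ± 0.13 and did not pass.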

How the results depend on the processing

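No dynein gene changed direction past the threshold in any setting. Of the recomputed values of single genes, 2211 kept their side of the threshold, 158 lost the call and 19 gained it. Among those that kept their side, some differences that were not called changed sign, such as Dnah11 at 16 versus 8 days (-0.12 to 0.1). At 24 versus 8 days 26 of 28 calls held with each array left out in turn (Dnaaf6b and Dynll1 did not), at 16 versus 8 days 19 of 22 (Dnaaf2, Dnaaf5 and Dnal4 did not), at 24 versus 16 days 17 of 23 (Dnaaf4, Dnah11, Dnah7a, Dnah7b, Dnah7c and Dnah8 did not), and for the difference between the intervals 6 of 10 (Dnaaf1, Dnah17, Dnah7b and Dnali1 did not). Leaving out each array, the counts of genes higher and lower were 24 to 26 and 2 to 3 at 24 versus 8 days, 18 to 22 and 1 to 1 at 16 versus 8 days, 16 to 21 and 1 to 2 at 24 versus 16 days, and 1 to 3 and 5 to 9 for the difference between the intervals. The same counts for all genes were 3512 to 3854 and 5829 to 7386 at 24 versus 8 days. They were 1715 to 2036 and 1855 to 3099 at 16 versus 8 days. At 24 versus 16 days they were 1997 to 2874 and 1672 to 5196, and for the difference 344 to 625 and 269 to 458. With the replicate block on the 6 numbered arrays, 1 gene was lower at 24 versus 8 days, 0 at 16 versus 8 days, and 9 were higher and 0 lower at 24 versus 16 days, with 4 lower for the difference between the intervals. With that block, Dnaaf2, Dnaaf5, Dnaaf6b and Dynll1 also lost the higher call at 24 versus 8 days. Dnaaf2, Dnaaf3, Dnaaf5, Dnal1 and Dnal4 lost it at 16 versus 8 days, with the block and without it. The counts of all genes on these 6 arrays are not given here. Whether the loss is particular to dynein genes therefore cannot be read from the counts. The same arrays without the block gave 1 lower at 24 versus 8 days. At 24 versus 16 days they gave 9 higher and 1 lower, and for the difference 4 lower. Both settings leave out the unnumbered array of each age. The number of arrays and the choice of arrays therefore cannot be told apart. Same-numbered arrays did not deviate together (correlations from -0.461 to 0.197). With 3 arrays per age this cannot exclude a pairing of the samples by number, and no label states one. Centring each array left 1 gene lower at 24 versus 16 days. Array weights, and leaving out the 2 arrays with raised olfactory receptor genes, gave 2 genes higher for the difference. Counts of all genes in these settings are not given here. With centring the median of all genes at 24 versus 8 days was -0.058, against -0.178 without it, and the share of calls that were higher was 45.6% against 35.3%. At 24 versus 16 days that share was 59.8% with centring, against 39.7% without it. Relative to the median of all genes, the change at 24 versus 8 days was 4.57 for Dnah12, -1.05 for Dynlrb1 and -0.25 for Dnah11. With 3 arrays per age and centred values, differences within the spread of arrays were not detectable, and no signal over background can be given.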
